A study of Mus musculus with 12 samples.

Results

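The antioxidant genes under Nrf2 control described here are 10 of the 34245 genes in the table, taken by their symbols, with 1 row for each. They are the regulators Nfe2l2 and Keap1, the glutathione genes Gclc, Gclm, Slc7a11, and Gpx3, the thioredoxin genes Txnrd1 and Srxn1, and the detoxification genes Nqo1 and Hmox1. They were picked with their response to p38-MAPK inhibition in these libraries known. Their levels under inhibition, and how many of them the fit over all genes called, are therefore given as a description that supports nothing further. The tests that are read as such are those of the change of the same genes in control blastocysts. They share control libraries with the values used for the choice and are not independent of it. Other genes of the pathway were also listed with earlier results of these data known. Their adjusted p-values under inhibition are therefore given as a description too.

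Nfe2l2 encodes NRF2, a transcription factor that binds antioxidant response elements in DNA as a partner of a small MAF protein. KEAP1 holds NRF2 in the cytoplasm and presents it to a ubiquitin ligase built on CUL3, which leads to its degradation. When oxidants or electrophiles modify cysteines of KEAP1, NRF2 accumulates and drives genes that make glutathione, reduce thioredoxin, and clear quinones and heme. NRF2 is controlled in large part as a protein, which mRNA levels do not show.

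The embryos came from matings of F1 hybrid (C57Bl6 x CBA/W) mice, were collected at the 2-cell stage, and were grown in KSOM medium with amino acids. At E3.5 they were moved into medium with the solvent DMSO (control) or with 20 µM SB220025 dissolved in DMSO, which inhibits p38-MAPK (p38-MAPKi), and 4, 7, or 10 h later they were lysed for RNA; times in the text are hours after E3.5. Each of the 6 groups has 2 replicates, each a pool of 30 whole blastocysts, and poly(A) RNA was sequenced. In pooled embryos a lower level can come from fewer cells of a type or from less RNA per cell, and these cannot be told apart here. RPKM, the unit of all levels here, is the number of reads of a gene scaled to its exon length and to the depth of the library, so each level is a share of the library's reads and not an amount per embryo.

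The depth was between 11242313 and 24457312 reads. The library of p38-MAPKi replicate 1 at 7 h stood apart, with the lowest depth, 14026 genes with a read where the others had 16368 to 17670, and a correlation of 0.924 with its replicate where other pairs had 0.969 to 0.981. The trophectoderm markers Krt18 and Cdx2, the epiblast markers Pou5f1 and Nanog, and the primitive endoderm marker Gata6 were well above 1 RPKM in each library. Other listed markers were low. The trophectoderm marker Elf5 stayed at 0.12 to 0.83 RPKM, and the later primitive endoderm marker Sox7 at 0.02 to 0.44 RPKM. The primitive endoderm markers Lama1 (0.70 to 2.62 RPKM), Gata4 (1.07 to 3.86), and Sox17 (1.16 to 4.38) were near 1 RPKM at their lowest. The summed level of 7 primitive endoderm markers in p38-MAPKi libraries was 102 RPKM in both at 7 h, below the 132 to 157 RPKM of the controls. At 10 h it was 144 to 146 RPKM, above 138 to 143 RPKM, and at 4 h it overlapped. Gata6, at 80.9 to 129 RPKM, made up most of this sum. At 10 h Gata6 lay above control without overlap (log2 fold change 0.11), while Gata4 (-0.70), Lama1 (-0.41), and Fgfr2 (-0.18) lay below. Sox17 and Pdgfra overlapped there. The sum of 7 epiblast markers was 570 to 598 RPKM at 10 h, below 633 to 639 RPKM in the controls, and overlapped before. That of 8 trophectoderm markers was 1955 to 1986 RPKM at 4 h, above 1770 to 1927 RPKM, and overlapped later. Among single markers, Cdx2, Gata3, Sox2, and Fgfr2 lay below control without overlap at each time point, and no marker was called in limma. Log2 fold changes were -0.42, -0.49, and -0.22 for Cdx2 and -0.54, -0.68, and -0.30 for Gata3. They were -0.23, -0.37, and -0.19 for the epiblast marker Sox2 and -0.60, -0.92, and -0.18 for the primitive endoderm marker Fgfr2. Krt8, Krt18, Tfap2c, and Pou5f1 lay above control without overlap at 4 h. The part of these marker differences in the results below was not tested. The 7 markers of cumulus cells summed to under 1 RPKM in each library, although higher in p38-MAPKi libraries than in controls at all 3 time points, and the defining Has2, Ptx3, Tnfaip6, and Fshr had no read. The sums of 4 oviduct and 6 blood markers reached at most 1.31 and 1.19 RPKM.

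Srxn1 had the lowest level under p38-MAPKi at 10 h relative to control, so its promoter is shown. The sequence holds the 250 bases before the start of Srxn1 at chr2:152105274-152105523 (plus strand, RefSeq table of GRCm38.p6). Capitals mark matches, on either strand, to TGAGNNNGC, a form of the antioxidant response element core, and to TGANTCA, a motif of AP-1 type factors.

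Srxn1 promoter: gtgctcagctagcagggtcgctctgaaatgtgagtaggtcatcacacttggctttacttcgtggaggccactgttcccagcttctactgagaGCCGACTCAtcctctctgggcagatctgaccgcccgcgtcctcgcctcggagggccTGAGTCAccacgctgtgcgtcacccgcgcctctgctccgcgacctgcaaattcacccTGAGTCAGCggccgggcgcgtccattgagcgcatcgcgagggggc

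TGAGNNNGC occurred 2 times in the shown bases, and the copy nearer the start overlaps 1 of the 2 copies of TGANTCA. The other core form searched, TGACNNNGC, occurred 1 time just after the start, outside the shown bases. Over all 32851 promoters of the table, each with 250 bases before and 50 after the start, 17.6% hold TGAGNNNGC, 12.4% hold TGACNNNGC, 27.8% hold either, and 7.81% hold TGANTCA. Of the 10 genes, 8 had a promoter in the table, and 5 of these held either core form in at least 1 promoter. The 8 genes have 10 promoters in the table, 3 of them of Txnrd1, so a count of genes is not a share of promoters. The table has no entry for Hmox1 and Gclc. The windows of 30 bases around the match in Gclm, Txnrd1 (the second of 3 starts in the table), and Nfe2l2 are shown for comparison, in the direction of the gene, with the match to TGACNNNGC on either strand in capitals. They lie at chr3:122245413-122245442 (plus strand), chr10:82859104-82859133 (plus strand), and chr2:75704884-75704913 (minus strand).

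Gclm: gctcccgggcGCACCGTCAactctcacgag
Txnrd1: ctggatttttGCTTTGTCAttctgacacgg
Nfe2l2: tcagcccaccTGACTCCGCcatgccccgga

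A match describes letters in the promoter and does not show a site that NRF2 occupied in these embryos. The promoters of Nqo1, Keap1, and Gpx3 in the table held none of the 3 motifs, and that of Slc7a11 held TGAGNNNGC.

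Across the 6 control libraries, which span the 3 time points, 9 of the 10 genes were expressed. Srxn1 was the highest, at 39.7 ± 5.47 RPKM (SD, n = 6). Its level exceeded that of 87.3% of the 11590 genes with at least 1 RPKM in 2 or more of the 12 libraries. Hmox1 followed at 32.1 ± 3.80, Txnrd1 at 28.8 ± 2.96, Nfe2l2 at 20.4 ± 1.64, Keap1 at 18.2 ± 1.98, Gclm at 16.4 ± 1.47, Gpx3 at 15.1 ± 6.61, Gclc at 5.31 ± 0.772, and Nqo1 at 3.60 ± 0.973 RPKM. In this order only Txnrd1 and Nfe2l2, Gpx3 and Gclc, and Nqo1 and Slc7a11 were neighbours whose ranges did not overlap. Slc7a11, the cystine carrier that feeds glutathione synthesis, had 10 reads in all 12 libraries together and at most 3 in 1 library. It was below the expression filter in every comparison, and with each library at or under the 3 reads that a count of 0 allows, no fold change is given.

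**Figure D1:**
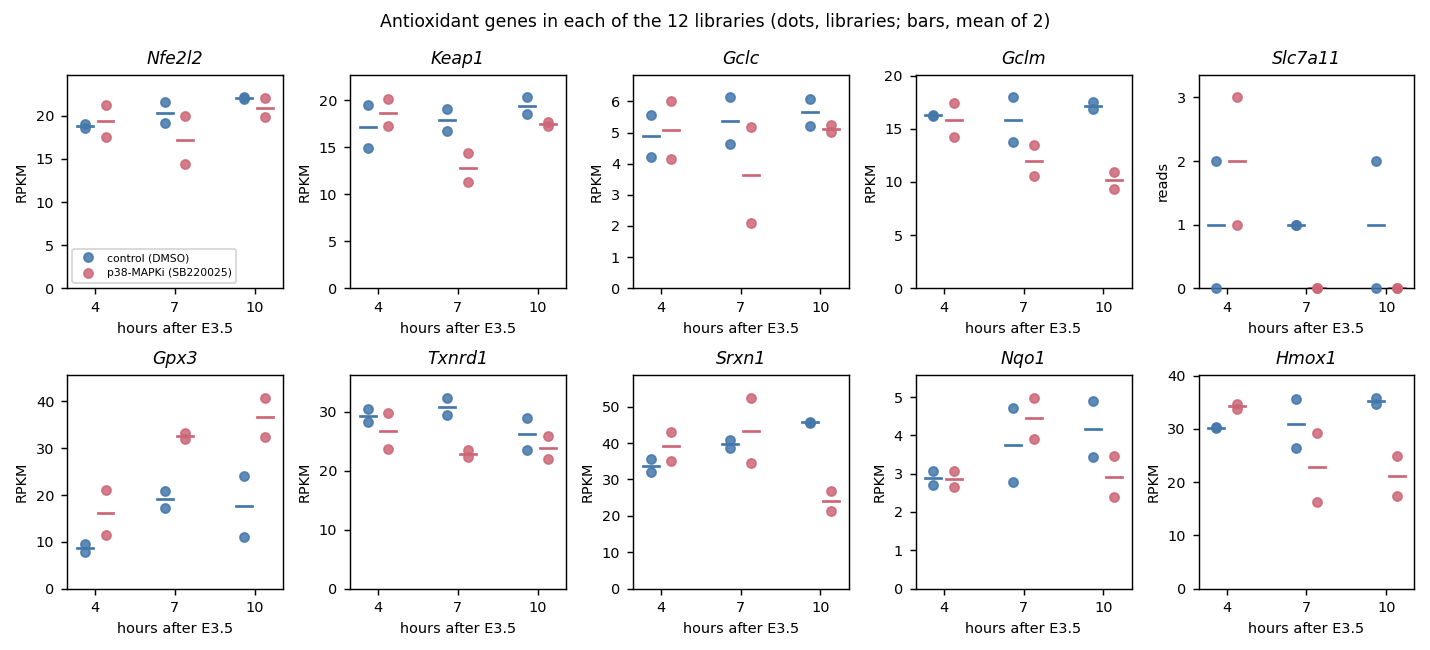
Level of each of the 10 antioxidant genes in the 12 libraries (RPKM, and reads for Slc7a11) against hours after E3.5; dots are libraries and bars are means of 2. Both p38-MAPKi dots of Srxn1, Gclm, and Hmox1 lie below both control dots at 10 h, and those of Gpx3 lie above at each time point.

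The levels of the regulators at 10 h were close in both groups. Nfe2l2 (chr2:75675513-75704641) was measured at 18.6 and 19.0 RPKM in the controls and at 21.3 and 17.5 RPKM in p38-MAPKi at 4 h, the replicates given in order. At 7 h these values were 21.6 and 19.2 against 14.4 and 20.0 RPKM, and at 10 h they were 22.1 and 21.9 against 19.9 and 22.0 RPKM. The groups overlapped at each time point, and the lowest value belongs to the library that stands apart. The log2 fold change of Nfe2l2 was 0.04 (SE 0.21), -0.26 (SE 0.21), and -0.07 (SE 0.08) at the 3 time points. Without that library the second was -0.02. For every gene, the SE at 4 h came from a trend over all genes and not from its own replicates.

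Keap1, the sensor that holds NRF2 (chr9:21229730-21239361), was at 14.96 and 19.5 RPKM in the controls and 20.1 and 17.3 RPKM in p38-MAPKi at 4 h. It was at 16.7 and 19.1 against 11.3 and 14.4 RPKM at 7 h, and at 18.6 and 20.3 against 17.2 and 17.7 RPKM at 10 h. The p38-MAPKi libraries thus lay below the controls at the later time points, more so at the earlier of these. Log2 fold changes were 0.13 (SE 0.21), -0.48 (SE 0.20), and -0.15 (SE 0.08), and the second was -0.31 without p38-MAPKi replicate 1, -0.29 with median centring, and -0.28 with the trend on gene length removed. Of the exon bases of Keap1, 10.9% are shared with Gm16754 on the other strand, and the strand option of the counting is not given in the sources used here.

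The enzyme that makes the first bond of glutathione, glutamate-cysteine ligase, has a catalytic subunit encoded by Gclc and a modifier subunit encoded by Gclm. Gclm (chr3:122245557-122270732) was at 16.2 and 16.3 RPKM in the controls and at 17.4 and 14.2 RPKM in p38-MAPKi at 4 h. At 7 h it was at 13.8 and 17.9 against 10.5 and 13.5 RPKM, and at 10 h at 16.8 and 17.5 against 9.38 and 10.9 RPKM. The groups overlapped at first, lay side by side at 7 h, and were far apart at 10 h. The log2 fold change of Gclm went from -0.05 (SE 0.21) through -0.40 (SE 0.22) to -0.76 (SE 0.10), the last a level 41.1% lower. With the trend on gene length removed the value at 7 h was -0.09, and that at 10 h was -0.77. The exons of Gclm share 4.71% of their bases with Gm17494 and Gm6061.

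Gclc (chr9:77754535-77794485) showed no such difference at 10 h. Its level was 4.22 and 5.57 RPKM in the controls and 6.01 and 4.16 RPKM in p38-MAPKi at 4 h, 4.64 and 6.13 against 2.10 and 5.19 RPKM at 7 h, and 5.22 and 6.09 against 5.02 and 5.23 RPKM at 10 h. The groups overlapped at each time point. Log2 fold changes were 0.04 (SE 0.26), -0.69 (SE 0.40), and -0.14 (SE 0.12). The value at 7 h rests on replicate 1 of p38-MAPKi, where Gclc had 89 reads, and was -0.04 without it.

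Gpx3, a secreted glutathione peroxidase that contains selenocysteine (chr11:54902453-54910377), had higher levels under p38-MAPKi. It was at 7.81 and 9.42 RPKM in the controls and at 21.1 and 11.4 RPKM in p38-MAPKi at 4 h. It was at 20.8 and 17.3 against 33.3 and 32.0 RPKM at 7 h, and at 24.0 and 11.1 against 40.8 and 32.5 RPKM at 10 h. The p38-MAPKi libraries stood above the controls at each time point, but the replicates of Gpx3 were wide apart in p38-MAPKi at 4 h and in the controls at 10 h. Its log2 fold changes were 0.85 (SE 0.22), 0.78 (SE 0.18), and 1.16 (SE 0.33). The last ranged from 0.60 without control replicate 2 to 1.71 without control replicate 1, and the first from 0.41 without p38-MAPKi replicate 1 to 1.30 without replicate 2.

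Srxn1 encodes sulfiredoxin, which restores peroxiredoxins that peroxide has over-oxidized (chr2:152105516-152111376). At 4 h its level was 32.1 and 35.5 RPKM in the controls and 43.1 and 35.2 RPKM in p38-MAPKi. At 7 h it was 40.9 and 38.6 against 34.4 and 52.5 RPKM, with the highest value of all 12 libraries in p38-MAPKi replicate 2. At 10 h it was 45.9 and 45.5 against 21.3 and 26.8 RPKM. Only at this last time point were the groups separate, and the p38-MAPKi values were then the lowest of all libraries. The log2 fold change of Srxn1 was 0.21 (SE 0.20), 0.10 (SE 0.22), and -0.94 (SE 0.11), the last a level 47.7% lower. Under all alternatives it stayed between -1.10 and -0.77. At 7 h it was 0.40 without p38-MAPKi replicate 1 and -0.21 without replicate 2, so that its direction there is not set.

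Txnrd1 encodes the cytosolic thioredoxin reductase (chr10:82833951-82897712). Its level was 28.3 and 30.4 RPKM in the controls and 29.8 and 23.7 RPKM in p38-MAPKi at 4 h, 29.4 and 32.4 against 22.3 and 23.5 RPKM at 7 h, and 28.9 and 23.5 against 25.9 and 21.9 RPKM at 10 h. The groups were separate at 7 h and overlapped before and after. Log2 fold changes were -0.14 (SE 0.20), -0.43 (SE 0.17), and -0.13 (SE 0.13), and the second was -0.08 once the trend on gene length was removed.

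Hmox1, the inducible heme oxygenase that opens the heme ring (chr8:75093621-75100589), was at 30.3 and 30.1 RPKM in the controls and at 33.7 and 34.7 RPKM in p38-MAPKi at 4 h. It was at 26.3 and 35.5 against 16.3 and 29.2 RPKM at 7 h, and at 34.6 and 35.8 against 17.4 and 24.9 RPKM at 10 h. The p38-MAPKi libraries of Hmox1 were slightly above the controls at first, overlapped them at 7 h, and were below them at the end. The log2 fold changes were 0.18 (SE 0.20), -0.49 (SE 0.28), and -0.76 (SE 0.16), the last a level 41.0% lower. The value at 4 h was -0.02 with the length trend removed, and that at 7 h was -0.07 without p38-MAPKi replicate 1.

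Nqo1, a quinone reductase often used as a marker of NRF2 activity (chr8:107388225-107403206), was low, with 72 to 155 reads per library. Its level was 2.71 and 3.07 RPKM in the controls and 2.65 and 3.07 RPKM in p38-MAPKi at 4 h, 4.73 and 2.78 against 4.98 and 3.91 RPKM at 7 h, and 4.90 and 3.43 against 3.45 and 2.40 RPKM at 10 h. The groups overlapped at each time point. Log2 fold changes were -0.02 (SE 0.31), 0.28 (SE 0.31), and -0.51 (SE 0.24). Single libraries moved them: the value at 7 h was -0.10 without control replicate 2 and 0.67 without control replicate 1, and that at 10 h was -0.25 without control replicate 1 or p38-MAPKi replicate 2 and -0.77 or -0.78 without control replicate 2 or p38-MAPKi replicate 1.

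**Figure D2:**
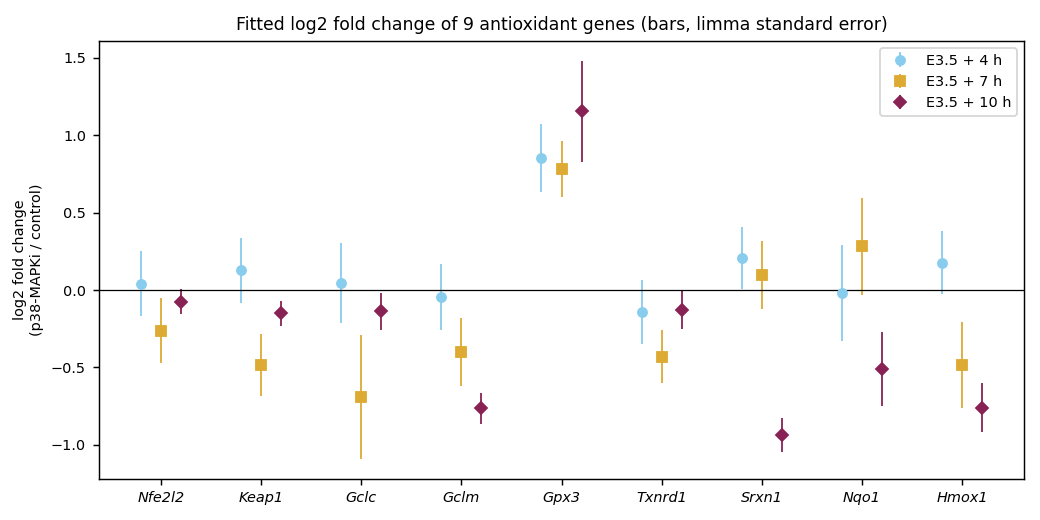
Log2 fold change of p38-MAPKi over control (y axis) for the 9 expressed genes at 3 time points. Bars are the standard errors of limma, which at 4 h do not reflect a gene's own replicates. At 10 h Srxn1, Gclm, and Hmox1 lie between -0.94 and -0.76, Nqo1 at -0.51, and Gpx3 at 1.16. Nfe2l2, Keap1, Gclc, and Txnrd1 lie between -0.15 and -0.07.

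Set side by side, 9 of the 10 genes had values in each comparison, with at least 1 RPKM in each of the 12 libraries. At 4 h, 1 of the 9 (Gpx3, higher) passed the threshold in limma, where 0.909% of all genes tested did. At 7 h it was 0 of 9, beside 2.13% of all genes, and at 10 h it was 2 of 9 (Srxn1 and Gclm, both lower), beside 0.803%. Since the genes were chosen on these values, nothing is read from these counts. Both p38-MAPKi libraries were above both controls for 2, 1, and 1 of the 9 genes at the 3 time points, beside 26.8%, 23.0%, and 22.6% of all genes tested, and below them for 0, 3, and 4, beside 13.7%, 38.7%, and 29.6%. The median log2 fold change of all genes tested was 0.07, -0.14, and -0.02, and the second was 0.05 after median centring. The values of these genes at 7 h should be read against that shift. The calls also rest on single libraries: Gpx3 did not pass at 4 h without either control replicate or without p38-MAPKi replicate 1, 4 genes (Gclc, Gpx3, Hmox1, and Keap1) passed at 7 h without p38-MAPKi replicate 2, and 1 passed at 10 h without control replicate 2 or without p38-MAPKi replicate 1.

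The change of the same genes in control blastocysts was not the contrast used to pick them. It shares the control libraries with the values above, so its tests are not independent of that choice. The controls of Gpx3 at 4 h, for example, enter both. From 4 to 7 h, Gpx3 rose from 8.62 ± 1.14 to 19.1 ± 2.52 RPKM (SD, n = 2), a log2 change of 1.15 (SE 0.19, limma adjusted p = 4.27e-06). It was the 1 gene of the 9 to pass, beside 0.492% of all genes tested. In this comparison limma set the variance of every gene to that of a trend over all genes. The SE and p-value of Gpx3 here thus do not reflect its own replicate spread. The rise of Gpx3 was between 1.01 and 1.28 on the log2 scale under every alternative, while the call was lost without control replicate 1 at 4 h and under 7 other alternatives. From 7 to 10 h, 0 of 9 passed in limma and 0 had an unadjusted p under 0.05, beside 0.0552% of all genes that passed.

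From 4 to 10 h, 0 of 9 passed in limma, beside 0.471% of all genes, and 3 had an unadjusted p under 0.05. These were Srxn1, with a log2 change of 0.44 (SE 0.11, limma adjusted p = 0.118), Nqo1, with 0.51 (SE 0.21, limma adjusted p = 0.302), and Gpx3, with 0.93 (SE 0.27, limma adjusted p = 0.165). Srxn1 passed without control replicate 2 at 4 h, and Gpx3 without control replicate 2 at 10 h, each then the 1 call. Both later libraries stood above both earlier ones for 6 of the 9 genes, where 42.3% of all genes did so. The median of all genes was 0.14, and after median centring it was 0.00, with Srxn1 at 0.30, Gpx3 at 0.79, and Gclm at -0.06 where it had been 0.08.

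**Figure D3:**
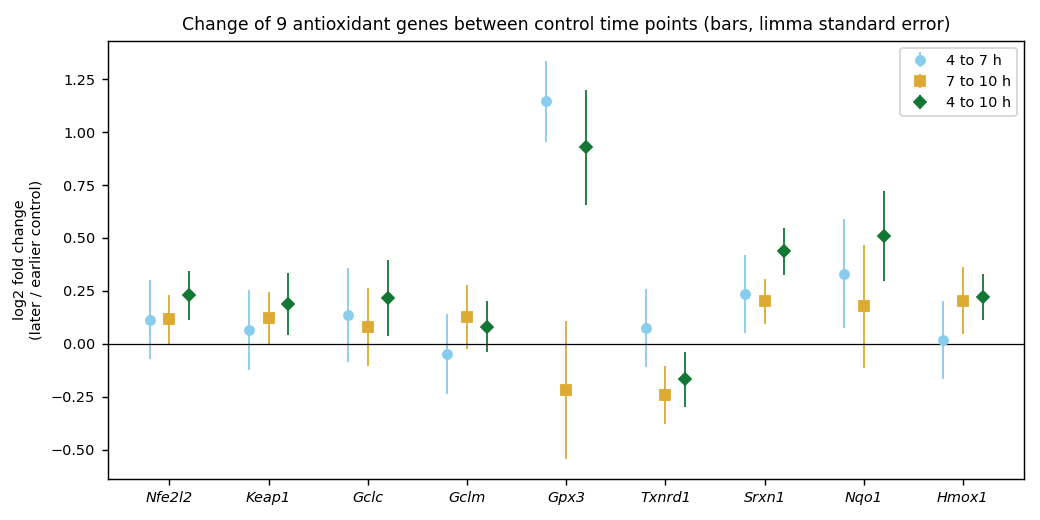
Log2 change between control time points (y axis, later over earlier) for the 9 expressed genes. Bars are the standard errors of limma, which from 4 to 7 h do not reflect a gene's own replicates. Gpx3 lies at 1.15 from 4 to 7 h, and Txnrd1 lies below 0, at -0.17, from 4 to 10 h.

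The levels of Srxn1 over the 12 libraries were compared with those of 6948 genes with a mean of at least 5 RPKM, as a description across libraries that share their groups and depth. The nearest were Gabarapl1, which takes part in autophagy (Pearson r = 0.93), Leo1, a subunit of the PAF1 complex (r = 0.89), Serp1, a protein of the endoplasmic reticulum (r = 0.86), Gm9774 (r = 0.85), and Uchl1, a ubiquitin hydrolase (r = 0.85). Gabarapl1 was at 28.3 and 27.8 RPKM in the controls and at 15.7 and 15.6 RPKM in p38-MAPKi at 10 h. Among the antioxidant genes with that level, Gclm had r = 0.68 and Hmox1 r = 0.62, at ranks 123 and 223. Nfe2l2 had r = 0.20, Txnrd1 0.18, Keap1 0.10, and Gpx3 -0.21.

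The rest of the pathway was taken from a list of 107 genes, of which 106 have a row. The list was made with earlier results of these data known, so the calls below describe it and are not independent tests. In the controls the genes with the highest levels in their groups were Sqstm1, Rbx1, and Bach1 among regulators (170 ± 12.8, 57.6 ± 7.05, and 46.6 ± 6.35 RPKM), Gsto1, Gpx1, and Gsta4 for glutathione (171 ± 28.7, 154 ± 31.9, and 104 ± 17.9), and Txn1, Prdx1, and Txnl1 for thioredoxin (358 ± 51.3, 130 ± 16.3, and 98.4 ± 4.57, SD, n = 6). For NADPH supply they were Taldo1, Pgd, and Idh1 (123 ± 13.2, 115 ± 7.40, and 89.2 ± 9.34), for iron and heme the ferritin chains Fth1 and Ftl1 and Hmox2 (735 ± 89.8, 474 ± 56.6, and 22.9 ± 2.48), for superoxide and peroxide Sod1, Sod2, and Cat (279 ± 36.3, 119 ± 9.71, and 32.4 ± 2.89), and for detoxification Akr1b8, Ptgr1, and Akr1a1 (360 ± 55.0, 157 ± 30.7, and 136 ± 11.8 RPKM).

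At 4 h, 1 of the 89 listed genes tested passed, which was higher, beside 0.621% of all genes that were called higher. It was Gpx7, a peroxidase of the endoplasmic reticulum, with 2.40 and 2.29 RPKM in the controls and 4.65 and 6.64 RPKM in p38-MAPKi, a log2 fold change of 1.24 (SE 0.28, limma adjusted p = 0.0036). The later log2 fold changes of Gpx7 were 1.10 and 0.47, with limma adjusted p-values of 0.052 and 0.307. The median log2 fold change of the list was 0.16, beside 0.07 for all genes tested, and 32 of the listed genes were above control without overlap and 3 below, beside 26.8% and 13.7% of all genes. By group, those above were 11 of 24 glutathione, 5 of 10 NADPH, 4 of 9 iron and heme, 5 of 15 detoxification, 1 of 3 superoxide and peroxide, 2 of 9 regulator, and 4 of 19 thioredoxin genes. Those below were 1 regulator, 1 iron and heme, and 1 detoxification gene. Without p38-MAPKi replicate 1 the count of calls was 3, and without either control replicate it was 0. It was 1 without p38-MAPKi replicate 2, but Gpx7 did not pass there.

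At 7 h, 1 of 87 listed genes passed, which was lower, beside 1.2% of all genes called lower. It was Bach1, a repressor that competes with NRF2 at antioxidant response elements, with 39.9 and 57.1 RPKM in the controls and 22.9 and 19.1 RPKM in p38-MAPKi, a log2 fold change of -1.19 (SE 0.22, limma adjusted p = 0.0461). Bach1 was at -0.52 at 4 h and -0.10 at 10 h, with limma adjusted p-values of 0.278 and 0.561. The list as a whole had a median of 0.20, beside -0.14 for all genes. Libraries lay above control without overlap for 37 listed genes and below for 16, beside 23.0% and 38.7% of all genes. This median and these overlap counts were not recomputed with the trend on gene length removed or without p38-MAPKi replicate 1. By group, 9 of 22 glutathione, 9 of 18 thioredoxin, 4 of 11 NADPH, and 5 of 9 iron and heme genes were above and 2 of each below. For detoxification it was 6 above and 3 below of 15, for superoxide and peroxide 2 and 0 of 3, and for regulators 2 and 5 of 9. The count of calls was 0 without control replicate 2, 2 without p38-MAPKi replicate 1, 6 without control replicate 1, and 14 without p38-MAPKi replicate 2.

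At 10 h, 2 of 88 listed genes passed, both lower, beside 0.465% of all genes called lower. Tfrc, the receptor that takes up iron with transferrin, was at 12.99 and 12.6 RPKM in the controls and 8.67 and 8.83 RPKM in p38-MAPKi, a log2 fold change of -0.55 (SE 0.08, limma adjusted p = 0.0490). Cbr3, a carbonyl reductase, was at 4.80 and 5.17 against 1.98 and 2.59 RPKM, a log2 fold change of -1.14 (SE 0.17, limma adjusted p = 0.0482). Both lie close to the threshold, and 0 listed genes passed without either control replicate or without p38-MAPKi replicate 1. The list had a median of -0.06, beside -0.02 for all genes, with 14 genes above and 32 below control without overlap, beside 22.6% and 29.6% of all genes. By group, the p38-MAPKi libraries were below control without overlap for 8 of 18 thioredoxin, 3 of 3 superoxide and peroxide, 4 of 9 iron and heme, 5 of 23 glutathione, 5 of 15 detoxification, 4 of 11 NADPH, and 3 of 9 regulator genes. They were above for 6 glutathione, 4 detoxification, 2 thioredoxin, 1 NADPH, and 1 regulator gene, and for 0 in the other groups.

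**Figure D4:**
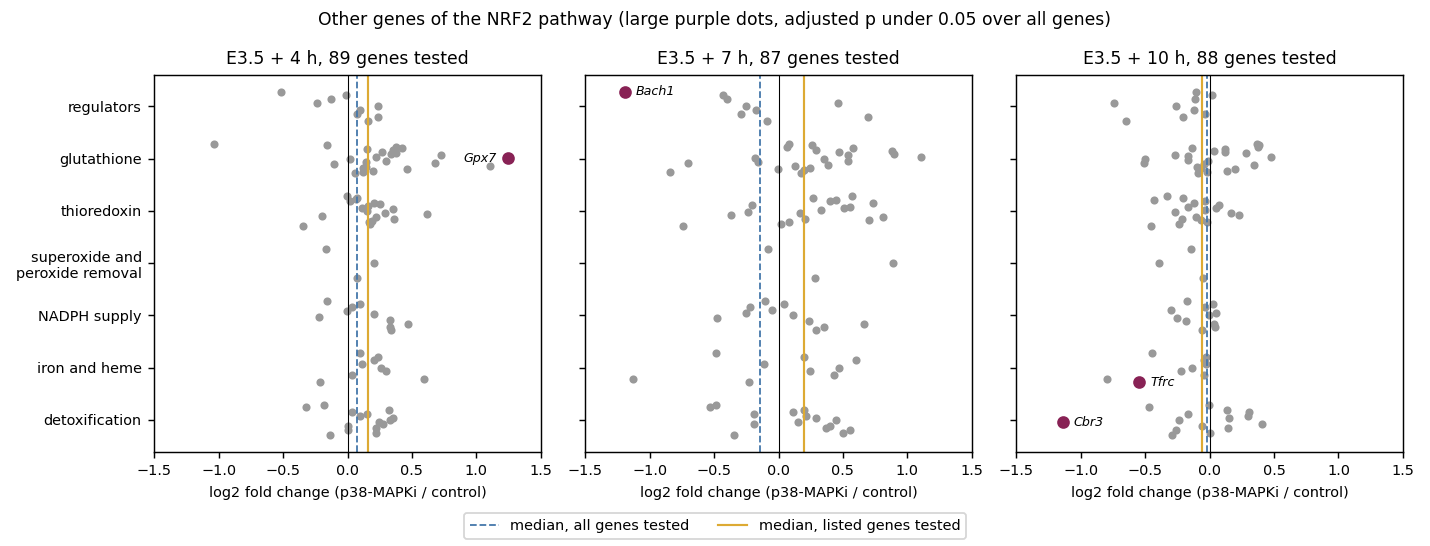
Log2 fold change of p38-MAPKi over control (x axis) for the other tested genes of the pathway, by group, at the 3 time points; each dot is a gene, the dashed line the median of all genes tested, and the solid line that of the listed genes. The list median lies at 0.16, 0.20, and -0.06, and the called genes Gpx7, Bach1, Tfrc, and Cbr3 are marked.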

How the data were processed

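The measurement was mRNA-Seq of 12 libraries in 6 groups of 2. According to the labels and the study's methods, the authors trimmed reads with Trim Galore 0.4.1, mapped them to GRCm38 with HISAT2 2.0.5, and counted them over genes in SeqMonk, and they deposited log2 RPKM values for 34245 genes. In these values a gene without a read stands at 0.9 of a read, so the lowest value of a library gives its depth, which lay between 11242313 and 24457312 reads. Whole reads were recovered, within about 0.02 of a read, for 34244 genes. Exon lengths came from GENCODE M21 or, where these gave no whole reads, from a search for the shortest length that did. The strand option and the treatment of reads that map to several places are not given in the sources used here. All columns of values were used.

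The deposited log2 values were compared with limma 3.58.1 (lmFit, and eBayes with a trend) in R 4.3.3, in the 4 libraries of each comparison. A gene was tested if 2 or more of these libraries had it at 1 RPKM or above, p-values were adjusted over all of them by the method of Benjamini and Hochberg, and the threshold was 0.05. A fold change is a difference of mean log2 RPKM, with no pseudocount added. At E3.5 + 4 h, and between the controls at E3.5 + 4 h and + 7 h, limma set the variance of every gene to that of the trend. A gene's own replicate spread played no part there in its standard error or its p-value. The fit was tested on simulated libraries with known changes. The 10 genes, the wider list of 107 NRF2 pathway genes, of which 106 have a row, and the marker lists were chosen with earlier results of these data known. For that reason the outcome of the fit for the 10 genes between p38-MAPKi and control is printed as counts beside those of all genes and is not read as a test of them. The adjusted p-values of the wider list between p38-MAPKi and control carry the same limit. For the 10 genes, another contrast was at hand. A test was made between control time points, in 3 comparisons that share libraries with each other and with those of the inhibitor. Because of the shared control libraries, it is not independent of the choice of the genes.

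Genes were named by a rule: each of the 10 genes, each called gene of the wider list and the 3 genes of each of its groups with the highest control level, and the 5 genes with the highest Pearson correlation with Srxn1 over 12 libraries among genes with a mean of at least 5 RPKM. Promoters came from a RefSeq table of GRCm38.p6 that covers 250 bases before and 50 bases after each gene start. Alternatives were leaving out each library, voom on the recovered reads, a block for the replicate number, 1 fit of all 12 libraries, log2(RPKM + 1), a limit of 10 RPKM or no limit, limma with no trend, removal of a loess trend on gene length (span 0.5), and scaling by quantiles or by medians. Figures were drawn with matplotlib 3.10.9, and Python 3.11.15, numpy 2.4.6, and pandas 2.3.3 were used for the rest.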

Additional observations from a re-analysis of the deposited data

Results flagged for a closer look

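Hmox1 was marked for a closer look because its libraries moved in opposite directions at the first and the last time point. At E3.5 + 4 h both p38-MAPKi libraries stood above both control libraries, with a log2 fold change of 0.18, and at E3.5 + 10 h both stood below, with a log2 fold change of -0.76. The difference between the time points was not tested. Removing the trend on gene length put the value at E3.5 + 4 h at -0.02.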

How the results depend on the processing

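Among listed pathway genes at E3.5 + 4 h, 1 gene was called, and 0 were called without the trend, with median centring, quantile normalization, no filter, a limit of 10 RPKM, a single fit, length trend removal, or voom. At E3.5 + 7 h, 1 was called, with 0 without the trend or with median centring, quantile normalization, or length trend removal, 3 with log2(RPKM + 1), 6 without a filter, 7 at 10 RPKM, 9 with voom, 14 in a single fit, and 16 with the replicate block. At E3.5 + 10 h, 2 were called, with 0 without the trend, without a filter, or in a single fit, 5 with the replicate block, and 8 with voom. Leaving out 1 library gave 0 to 3, 0 to 14, and 0 to 3 listed genes at the 3 time points. The cause of these changes was not tested.

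Of the 9 antioxidant genes with values, the number past the threshold against control at E3.5 + 4 h was 1, and 0 without the trend, with median centring, quantile normalization, no filter, a single fit, length trend removal, or voom. At E3.5 + 7 h it was 0, and 1 without a filter, at 10 RPKM, with log2(RPKM + 1), the replicate block, or voom. At E3.5 + 10 h it was 2, with 0 without the trend, without a filter, or in a single fit, and 4 with the replicate block or voom. Leaving out 1 library gave 0 to 1, 0 to 4, and 1 to 3. In the controls, the 1 call between E3.5 + 4 h and + 7 h was 0 without the trend, with median centring, quantile normalization, no filter, a single fit, the replicate block, or length trend removal, and 0 to 1 with a library left out. Between + 4 h and + 10 h the count was 0, and 2 at 10 RPKM, with the replicate block, or with voom, and 0 to 1 with a library left out. Between + 7 h and + 10 h it was 0 under each alternative.

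The same replicate number is used in each group, but nothing in the labels ties a number to a shared day or litter, and the deviations of same-numbered libraries correlated between -0.01 and 0.17 in the 6 comparisons, so the replicate block was kept as an alternative. Of 798 values of single genes under an alternative, 742 stayed on their side of the threshold or, without a test, moved by less than the replicate spread. A further 37 were no longer past the threshold, 8 came past it, and 11 without a test moved by more than that spread. Tested values that stayed short of the threshold count among the 742 whatever their direction. Between the controls at E3.5 + 4 h and + 7 h, Keap1 kept its direction in 9 of 14 alternatives and Hmox1 in 10 of 14. Depth limited Nqo1, with 72 to 155 reads per library, and Slc7a11, with 0 to 3.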

Other observations

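In the controls, 13 of the 15 tested detoxification genes of the wider list had both libraries at E3.5 + 10 h above both at E3.5 + 4 h. The same relation was found in 42.3% of all genes tested. This group was singled out from the 7 groups of the list after their values were seen, and in the thioredoxin group 5 of 19 genes stood above, 2 below, and the median was 0.07. The detoxification median of the log2 difference was 0.33, against 0.14 for all genes tested, and the lowest of its genes was at 0.08. With limma, 0 of the 15 were called, and 7 had an unadjusted p under 0.05. The 3 examples that follow were chosen after their values were seen. Aldh7a1, an aldehyde dehydrogenase, had a log2 difference of 0.65 and an adjusted p of 0.148 in limma. Ephx1, an epoxide hydrolase, had 0.50 and an adjusted p of 0.205, and Ptgr1, a reductase of prostaglandins and related alkenals, had 0.40 and an adjusted p of 0.136.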
